A study of Mus musculus with 42 samples.

Results

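The data described here are the 6 ventromedial hypothalamus (VMH) and 5 dorsomedial hypothalamus (DMH) RNA-seq libraries of fed mice, taken by their labels from a series of 42 libraries. Each library came from 1 nucleus cut by laser-capture microdissection from cryosections of the brain. The mice were wild-type C57/BL6 males, adult, with free access to food. The series also holds the arcuate nucleus (ARC) and paraventricular nucleus (PVN) of fed mice, and all 4 nuclei of mice fasted for 24 h. The 6 VMH and 4 DMH libraries of fasted mice are used below as the same comparison in other libraries. All nuclei were dissected from the same brains according to the study's methods, and the labels do not say which libraries share a mouse. Levels are RPKM, that is, reads scaled to the length of the gene and the size of the library, and differences are VMH minus DMH on the log2(RPKM + 1) scale. Levels are given ± SD and differences ± SE.

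The VMH and the DMH lie one above the other in the tuberal hypothalamus. The VMH is a compact group of mostly glutamatergic neurons, is defined developmentally by the orphan nuclear receptor SF-1 (Nr5a1), and is known for roles in glucose counter-regulation, energy expenditure, and social and defensive behaviour. The DMH is a mixed field of GABAergic, glutamatergic and peptidergic neurons known for roles in thermogenesis, feeding and daily rhythms of activity, and its lateral side runs into the lateral hypothalamic area without a sharp border. In pieces of tissue, fewer cells of a type and less RNA per cell cannot be told apart.

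Of 33579 genes tested, 959 were higher in VMH and 802 were higher in DMH at an adjusted p under 0.1 (limma across all 42 libraries, Benjamini-Hochberg). These were 2.86% and 2.39% of the genes tested, or 5.24% in either direction. The genes tested included 4748 without reads in any of the 42 libraries, which could not pass. A filter chosen after seeing the data kept 19046 genes with reads in at least 4 of the 11 fed libraries. In a fit of those genes, 1146 were higher in VMH and 930 in DMH. The difference was at least 1 on the log2 scale for 255 of the VMH-higher and 199 of the DMH-higher genes, and at least 3 for 6 and 17 of them. In 590 of the VMH-higher and 335 of the DMH-higher genes, no VMH library overlapped any DMH library, against 1.95% and 1.2% of all genes tested that did not overlap in the same direction. The largest differences were therefore on the DMH side. Libraries fell into 3 sets by the value they give to genes without reads, and within each set the direction was the same for 949 of the VMH-higher and 695 of the DMH-higher genes. These genes were chosen by their difference over the same libraries, so the counts are no separate support. In 1 set, DMH library 1 was the only fed DMH library. Depth, estimated from the values, was 1.54 to 4.48 M reads in VMH and 2.94 to 5.05 M reads in DMH, and 102 of the DMH-higher genes were at the no-read value (the lowest value of the gene, given to libraries without reads) in all 6 VMH libraries, against 12 of the VMH-higher genes in all 5 DMH libraries.

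**Figure D1:**
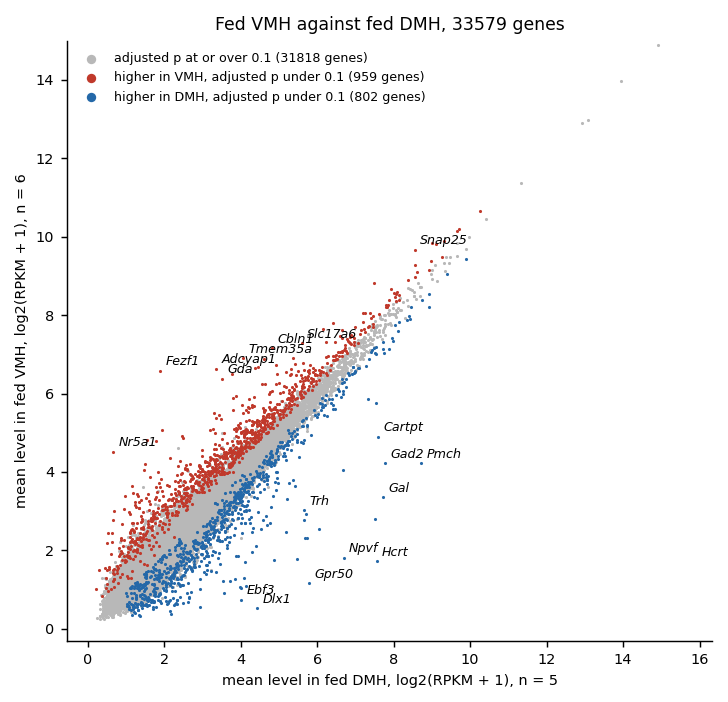
Mean level of each of 33579 genes in the 5 fed DMH libraries (x axis) and the 6 fed VMH libraries (y axis), both as log2(RPKM + 1). Red points are the 959 genes higher in VMH and blue points the 802 genes higher in DMH at an adjusted p under 0.1; Fezf1 and Nr5a1 lie far above the diagonal, and Hcrt, Npvf, Gpr50, Gal and Pmch far below it.

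The 2 labels were set beside lists of 20 genes that mark each nucleus. The lists were written with earlier results of these data known, so their counts are not an independent check of the labels. In the VMH list 15 genes were higher in VMH and 1, Dlk1, was higher in DMH, with a list median difference of 2.13 against 0.00 over all genes tested. In the DMH list 10 genes were higher in DMH and 0 were higher in VMH, with a list median of -0.91. These counts were the same in every fit that left out 1 fed library. Single libraries stood apart for some genes: DMH library 1 had the highest Hcrt, Pmch, Gad1, Gad2 and Slc32a1 of the DMH libraries. VMH library 1 or 2 was the highest VMH library for most of the 12 genes with the largest DMH-higher differences, and lay below every DMH library for each of them.

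The transcription factors Fezf1 and Nr5a1 headed the VMH side. Fezf1 (chr6:23245044-23248362, minus strand, GRCm38), a zinc finger regulator of forebrain neuron identity, measured 57.8 RPKM in the lowest VMH library, 101 at the median and 126 in the highest. In the 5 DMH libraries it measured 0.713, 2.28, 1.11, 3.91 and 5.61 RPKM. The groups were far apart, with a difference of 4.80 ± 0.29 (SE) and an adjusted p of 5.2e-14 in limma. Nr5a1 (chr2:38692656-38714542, minus strand), which encodes SF-1, ranged from 7.29 to 38.5 RPKM around a median of 21.3 in VMH. It stayed between 0.166 and 0.843 RPKM in DMH, so even the lowest VMH library was above every DMH library (difference 3.74 ± 0.22, adjusted p = 3.5e-14). Nr0b1, which encodes DAX-1, a partner that represses SF-1, was higher in VMH by 2.25 ± 0.26. The transcription factor Sox14 (1.99 ± 0.24), the LIM-only cofactor Lmo3 (2.34 ± 0.17) and the orphan receptor COUP-TFII, Nr2f2 (1.11 ± 0.14), were also higher in VMH, all with adjusted p under 0.1.

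Adcyap1, which encodes the neuropeptide PACAP, was the most abundant of the peptide precursors on the VMH side after the synaptic organizer Cbln1. Adcyap1 (chr17:93199017-93206537) ran from 86.5 to 116 RPKM in VMH, with a median of 91.8, and measured 4.23, 8.31, 8.41, 14.6 and 10.7 RPKM in DMH. The difference was 3.35 ± 0.28 (adjusted p = 5.9e-11, limma). Cbln1 averaged 142 ± 20.1 RPKM (SD, n = 6) in VMH and 27.1 ± 7.04 (n = 5) in DMH, a difference of 2.38 ± 0.28. The growth factor Bdnf was low in both but separated, at 2.55 to 7.0 RPKM in VMH against a DMH mean of 0.87 ± 0.172.

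Several receptor genes were among the largest VMH-higher differences. The orphan receptor Gpr149 lay between 20.2 and 38.1 RPKM in VMH and between 0.948 and 3.02 in DMH (3.28 ± 0.25). The M5 muscarinic receptor Chrm5 differed by 3.13 ± 0.34, although its VMH libraries spread from 14.2 to 64.4 RPKM. The gastrin and cholecystokinin B receptor Cckbr measured 10.4 to 22.7 RPKM in VMH and 1.16 to 2.50 in DMH (2.54 ± 0.28). The cannabinoid receptor Cnr1 averaged 51.5 ± 11.9 RPKM in VMH against 15.4 ± 1.58 in DMH (1.65 ± 0.16). The remaining genes of the 12 largest VMH-higher differences were Gda, a guanine deaminase (2.89), Cnih3, an AMPA receptor auxiliary subunit (3.01), Tmem35a, a chaperone of nicotinic receptors (2.82), Nrgn, the calmodulin-binding neurogranin (2.77), the secreted guidance cue Slit3 (2.70) and the kinase Hipk4 (2.42). In each of them every VMH library was above every DMH library.

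A further 4 genes of the VMH list did not pass the test. Esr1, the oestrogen receptor that marks the ventrolateral VMH, averaged 1.51 ± 0.546 RPKM in VMH and 1.69 ± 0.208 in DMH (adjusted p = 0.91). Pgr (difference 0.38 ± 0.28), Tac1 (0.21 ± 0.30) and Vgll2 (0.22 ± 0.16), genes of the same subdivision, had adjusted p of 0.67, 1.0 and 0.66. Dlk1, an imprinted Notch ligand-like gene, averaged 15.5 ± 3.21 RPKM in VMH and 100 ± 17.0 in DMH, in the direction opposite to its list.

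**Figure D2:**
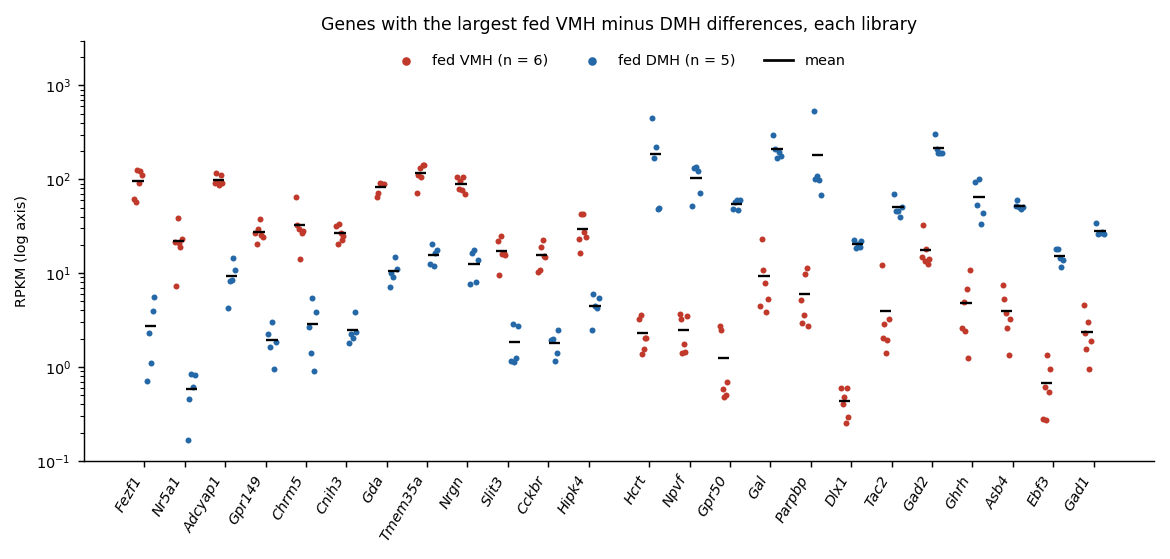
RPKM on a log axis of the 12 genes with the largest VMH-higher and the 12 with the largest DMH-higher differences among protein-coding genes whose libraries did not overlap. Points are single libraries (red, 6 fed VMH; blue, 5 fed DMH) and black bars are means; Hcrt ranges from 48.8 to 446 RPKM among the DMH libraries, whereas Gpr50, Dlx1 and Asb4 are tight.

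On the DMH side several of the leading genes encoded peptides. Npvf (chr6:50650672-50654439, minus strand), the precursor of RFamide-related peptides made by DMH neurons, measured 52.5, 132, 135, 121 and 72.0 RPKM in DMH. In VMH it reached no more than 3.67 RPKM, around a median of 2.51 (difference -4.85 ± 0.27, adjusted p = 1e-14, limma). Gal, the precursor of galanin, measured 299, 209, 168, 196 and 176 RPKM in DMH. It ran from 3.82 to 23.1 RPKM in VMH, and the groups did not overlap (-4.57 ± 0.36). Other DMH-list genes were higher in DMH by smaller margins: Trh, thyrotropin-releasing hormone (-2.96 ± 0.37), Grp, gastrin-releasing peptide (-3.01 ± 0.37), Cck, cholecystokinin (-3.04 ± 0.48), and Ppp1r17, a phosphatase inhibitor that marks a compact DMH population (-2.88 ± 0.25).

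The orphan melatonin-related receptor Gpr50, a tanycyte and DMH gene, measured 47.9, 57.0, 59.6, 47.3 and 60.5 RPKM in DMH. It was at 0.474 to 2.71 RPKM in VMH (-4.75 ± 0.33, adjusted p = 7.9e-13, limma). It was the 1 member of 14 tanycyte and ependymal genes that passed the test, and the list median was 0.06. Without Gpr50 the summed level of that list was 30.6 to 46.3 RPKM in DMH and 25.0 to 63.4 RPKM in VMH, so the groups overlapped. The homeobox factors Bsx (-2.76 ± 0.33), Hmx2 (-1.72 ± 0.21) and Hmx3 (-1.14 ± 0.14), the early B-cell factor Ebf3 (-3.30 ± 0.19) and the bombesin-like receptor Brs3 (-1.85 ± 0.23) were also higher in DMH. Hmx3 had reads in 0 of 6 VMH libraries and in 5 of 5 DMH libraries. Not all genes linked to the DMH separated the nuclei. Pdyn, the dynorphin precursor, averaged 48.5 ± 2.96 RPKM in VMH and 46.0 ± 8.69 in DMH (adjusted p = 0.98), and Glp1r averaged 7.38 ± 4.10 and 12.1 ± 4.74 (adjusted p = 0.47).

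Genes of neighbouring regions were present in the DMH libraries. The largest difference of all was that of Hcrt (chr11:100761069-100762931, minus strand), the orexin precursor of lateral hypothalamic neurons, at 446, 170, 222, 48.8 and 49.6 RPKM in DMH and 1.37 to 3.54 RPKM in VMH (-5.38 ± 0.37, adjusted p = 7.5e-13, limma). Pmch, the melanin-concentrating hormone precursor of the same area, measured 1003, 307, 277, 294 and 220 RPKM in DMH and 7.87 to 33.7 in VMH (-4.48 ± 0.43). Its exons overlap those of Parpbp over 58.1% of their length, and the reads carry no strand, so the value of Parpbp (-4.41) may be that of Pmch. For both genes DMH library 1 was above the other 4, and all 5 were above every VMH library.

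The list of 8 lateral hypothalamic markers summed to 2337 RPKM in DMH library 1, to between 485 and 800 RPKM in the other 4 DMH libraries, and to between 105 and 153 RPKM in VMH. In that list 5 genes were higher in DMH and 1, Nptx1, in VMH. The list holds both Pmch and Parpbp, and without Parpbp it summed to 1802 RPKM in DMH library 1, to between 418 and 693 RPKM in the other 4 and to between 100 and 141 RPKM in VMH, with 4 of 7 genes higher in DMH. The 9 arcuate markers tested summed to 105 to 203 RPKM in DMH and 38.8 to 90.0 in VMH, with Ghrh (-3.60) and Tac2 (-3.63) higher in DMH and Pomc (0.89) and Prlr (0.80) higher in VMH. The call of Pomc was lost when the nuclei were fitted alone (adjusted p = 0.35, limma), with the replicate number as a block (0.13) and without DMH library 4 or 5 or VMH library 2, 3, 4 or 6, with a difference of 0.58 without DMH library 5. Agrp, which defines an arcuate population, averaged 3.71 RPKM in VMH and 3.49 in DMH, against 133 RPKM in the fed ARC. Of 9 paraventricular markers 4 were higher in DMH (Calcr, Gpr101, Sim1 and Crh), whereas Oxt and Avp were at 20.8 and 6.40 RPKM in DMH against 4066 and 2113 RPKM in the fed PVN. The part of neighbouring tissue in the DMH-higher genes was not tested. Of 9 tested markers of other nearby nuclei 4 were higher in DMH, among them Hdc and Slc18a2. Without DMH library 1, the difference was -4.95 for Hcrt and -4.10 for Pmch, and the counts of DMH-higher genes in the DMH, GABAergic and lateral hypothalamic lists were 10, 9 and 5, as with it.

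Genes of the inhibitory transmitter were higher in DMH where they passed the test. Of 17 genes of GABAergic transmission 9 were higher in DMH and 0 in VMH, with a list median of -0.84, against 2.39% of all genes higher in DMH. Gad2, a GABA-synthesizing enzyme (chr2:22622205-22693874), measured 307, 212, 191, 192 and 189 RPKM in DMH and 12.4 to 32.5 RPKM in VMH (-3.61 ± 0.22, adjusted p = 5.5e-14, limma). The second enzyme, Gad1, measured 34.6, 25.8, 26.8, 27.2 and 25.9 RPKM in DMH and at most 4.56 RPKM in VMH (-3.18 ± 0.25). The vesicular GABA transporter Slc32a1 averaged 43.6 ± 16.2 RPKM in DMH and 2.44 ± 1.56 in VMH (-3.74 ± 0.33), with 24.9% of its exon length shared with another gene.

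The Dlx homeobox genes, which specify forebrain GABAergic neurons, followed the same direction. Dlx1 measured 18.7 to 22.4 RPKM in DMH and at most 0.599 RPKM in VMH (-3.91 ± 0.26). Dlx2 (-1.57), Dlx5 (-1.72), Dlx6 (-0.96) and the antisense transcript Dlx6os1 (-1.86) passed the test at lower levels, and the Dlx6 libraries overlapped. In the fed ARC, Gad2 averaged 150 RPKM and Slc32a1 35.7 RPKM, so the VMH held the lowest mean of both genes among the 4 fed nuclei.

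Of 12 genes of glutamatergic transmission 5 were higher in VMH and 2 in DMH (list median 0.25), and in fasted mice 4 and 2 (list median -0.01). The vesicular glutamate transporter Slc17a6 was at 125 to 188 RPKM in VMH, with a median of 153, and at 32.1, 49.7, 50.5, 51.7 and 53.5 RPKM in DMH. Its difference was 1.69 ± 0.17 (adjusted p = 6.3e-09, limma), so that transcript was also plainly present in DMH. Camk2a, the alpha subunit of a calcium and calmodulin-dependent kinase, was higher in VMH by 0.87 ± 0.13. Nrn1, which encodes the neurite-promoting protein neuritin, was higher in DMH by 2.48 on the same scale (-2.48 ± 0.28), with 22.3% exon overlap.

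**Figure D3:**
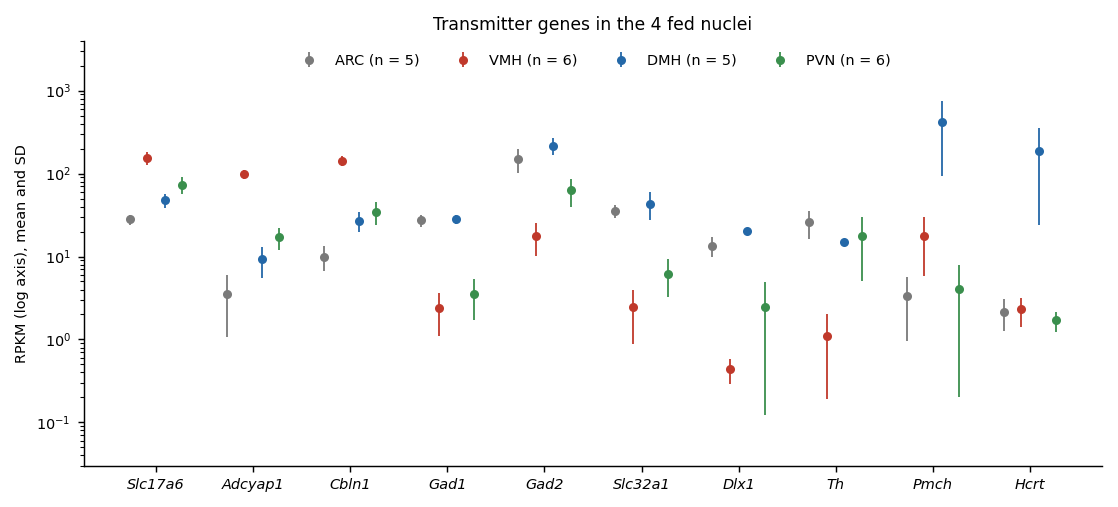
Mean and SD in RPKM (log axis) of 10 transmitter and peptide genes in the 4 fed nuclei (ARC, n = 5; VMH, n = 6; DMH, n = 5; PVN, n = 6). VMH has the highest mean of Slc17a6, Adcyap1 and Cbln1 and the lowest mean of Gad1, Gad2, Slc32a1, Dlx1 and Th; lower error bars that would reach 0 are cut short of it.

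Among genes of monoamine signalling 4 of 19 were higher in VMH and 6 in DMH. Tyrosine hydroxylase, Th, the first enzyme of dopamine synthesis, measured 17.1, 13.4, 13.8, 14.8 and 15.7 RPKM in DMH and 0.429 to 2.84 RPKM in VMH (-3.01 ± 0.29). The vesicular monoamine transporter Slc18a2 (-2.06 ± 0.32) and the histamine-synthesizing enzyme Hdc (-1.48 ± 0.23), a gene of tuberomammillary neurons, were also higher in DMH. Dopamine receptors were split, with Drd1 higher in VMH (1.15 ± 0.29) and Drd2 higher in DMH (-1.42 ± 0.43, adjusted p = 0.055, and 0.17 without DMH library 1). The histamine receptor Hrh1 (1.52 ± 0.24) and the serotonin receptor Htr1b (1.16 ± 0.16) were higher in VMH.

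Over all 48 neuropeptide precursors tested, 3 were higher in VMH (Adcyap1, Cbln1 and Pomc, the last with the limits given above) and 16 in DMH. When the nuclei were fitted alone these counts were 2 and 11. The peptide and hormone receptors were more even, with 12 of 55 higher in VMH and 9 in DMH. The 2 cholecystokinin receptors took opposite sides, as Cckbr was higher in VMH and Cckar was higher in DMH (-1.46 ± 0.32, overlapping libraries). The melanocortin receptor Mc3r (1.79 ± 0.27), the somatostatin receptor Sstr3 (2.09 ± 0.28) and the neuromedin B receptor Nmbr (1.88 ± 0.36) were higher in VMH, and the calcitonin receptor Calcr (-2.42 ± 0.24) in DMH. Oxtr (1.78 ± 0.30), Hcrtr1 (1.32 ± 0.35) and Npy1r (0.94 ± 0.24), which were chosen after their values were seen, were higher in VMH. The leptin receptor Lepr was low in both nuclei, at 1.76 ± 0.541 RPKM in VMH and 1.72 ± 0.491 in DMH, and the test found no difference (0.01 ± 0.17, adjusted p = 1.0).

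Among 27 steroid and nuclear receptors and their partners, 5 were higher in VMH and 4 in DMH. The thyroid hormone receptor Thrb was higher in VMH (0.94 ± 0.16), whereas the retinoid-related orphan receptor Rorb was higher in DMH (-1.44 ± 0.17). Transcription factors of the hypothalamus divided into 12 higher in VMH and 19 higher in DMH of 88 tested. In the list of 24 genes of glucose and energy sensing 2 were higher in VMH and 1 in DMH, with a median of -0.04. The leptin-melanocortin list had 4 of 19 genes higher in VMH and 2 in DMH. These counts were 2 and 2 when the nuclei were fitted alone, and 4 and 3 in fasted mice. The list median was 0.01 in fed and -0.28 in fasted mice.

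Receptor subunits and channels differed in both directions. Of 17 ionotropic glutamate receptor subunits (AMPA, NMDA, kainate and delta) 6 were higher in VMH, with Gria3 (0.98 ± 0.15) and Gria1 (0.66 ± 0.09) the largest, and 2, Grid1 (-0.80 ± 0.13) and Grin3a (-0.74 ± 0.14), were higher in DMH. Of 7 metabotropic glutamate receptors tested, 2 were higher in VMH, 1 without DMH library 1 and 4 without VMH library 4. Of 17 GABA-A receptor subunits 6 were higher in VMH and 3 in DMH. Gabra5, the alpha-5 subunit of extrasynaptic receptors, averaged 119 ± 18.6 RPKM in VMH and 40.2 ± 7.26 in DMH (1.55 ± 0.18). The epsilon subunit Gabre (-2.17 ± 0.26), with Gabrg3 (-0.72 ± 0.11) and Gabrq (-0.58 ± 0.11), was higher in DMH. The subunits of the same receptor therefore differed in both directions between the nuclei. When the 2 nuclei were fitted alone, 3 ionotropic glutamate subunits were higher in VMH and 2 in DMH, and 3 GABA-A subunits were higher in each. In fasted mice these counts were 4 and 3 for the ionotropic glutamate subunits, and 3 and 3 for the GABA-A subunits.

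Of 73 potassium channel subunits 14 were higher in VMH and 3 in DMH, and of 37 sodium, calcium and HCN channel subunits 7 and 5. Kcna1 (1.60 ± 0.29) and Kcna2 (1.41 ± 0.24), delayed rectifier subunits, Kcnq3 of the M current (1.27 ± 0.21) and the inward rectifier Kcnj5 (1.32 ± 0.32) led the VMH side, and the sodium-activated Kcnt2 (-1.34 ± 0.24) led the DMH side. Cacna2d1, an auxiliary calcium channel subunit, was at 79.1 to 117 RPKM in VMH and at 16.1 to 25.7 RPKM in DMH (2.2 ± 0.15, adjusted p = 7.9e-13, limma). The sodium channel genes Scn9a (-1.45 ± 0.13) and Scn3b (-1.20 ± 0.21) were higher in DMH.

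Of 27 cadherins and delta protocadherins 7 were higher in VMH and 0 in DMH, led by Cdh4 (2.18 ± 0.18) and Cdh13 (1.42 ± 0.13). In fasted mice 3 of them were higher in VMH and 3 in DMH, and in fed mice 2 were higher in DMH without VMH library 2. Of 24 calcium-binding genes 9 were higher in VMH and 3 in DMH. Calbindin, Calb1, was higher in VMH (1.33 ± 0.13), and the calcium-binding proteins secretagogin, Scgn (-1.92 ± 0.26), and Necab1 (-1.60 ± 0.17) were higher in DMH. Axon guidance genes were even, at 12 of 66 higher in VMH and 10 in DMH, among them Sema5a (0.96 ± 0.13) in VMH and the semaphorin receptor Nrp1 (-1.51 ± 0.23) in DMH.

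General neuronal genes differed as well. Of 16 pan-neuronal genes 7 were higher in VMH and 1, the RNA-binding protein gene Elavl2 (-1.49 ± 0.13), in DMH. Snap25, a component of the synaptic release machinery, was at 733 to 852 RPKM in VMH and at 322 to 434 RPKM in DMH (1.12 ± 0.09), and the neurofilament gene Nefm was at 46.7 to 73.6 and averaged 13.8 RPKM (2.07 ± 0.21). The summed level of the list was 2953 to 3399 RPKM in VMH and 1931 to 2150 RPKM in DMH. The part of the overall neuronal content in the VMH-higher channel and synaptic genes was not tested.

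Among the glial lists, that of oligodendrocytes held the most called genes. Of 15 oligodendrocyte genes 7 were higher in VMH and 0 in DMH, with a list median of 0.72 and a summed level of 323 to 493 RPKM in VMH against 186 to 281 in DMH. The myelin genes Mbp (0.83 ± 0.17) and Mal (0.91 ± 0.20) were separated between the groups. The VMH-higher count was 4 without DMH library 3, VMH library 2 or VMH library 4. In the fasted libraries 1 gene of the list was higher in VMH, with a list median of 0.31. None of 15 astrocyte, 7 oligodendrocyte precursor, 12 endothelial and mural or 5 blood genes passed the test, and of 12 microglial genes 1 did. Over all genes tested 5.24% passed in either direction. At that share lists this short hold few or no calls, so these counts do not show equal levels. Of 15 immediate-early genes, which neurons induce with activity, 3 were higher in DMH (Jun, -1.11 ± 0.25, Egr2, -1.21 ± 0.31, and Fosl2, -1.17 ± 0.28) and 0 in VMH, and Fos itself differed by -1.13 ± 0.41 (adjusted p = 0.14).

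**Figure D4:**
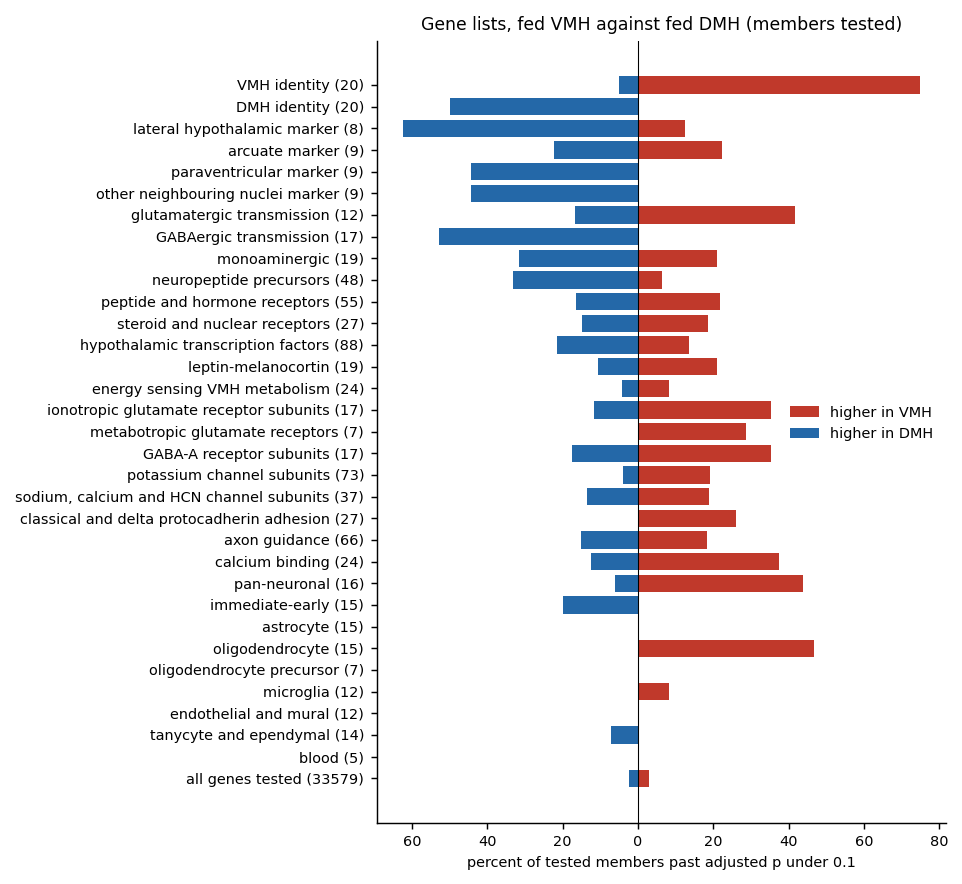
Share of the tested members of each gene list (number tested in parentheses) that were higher in fed VMH (red, right) or fed DMH (blue, left) at an adjusted p under 0.1. The VMH list (15 of 20 to the right) and the GABAergic list (9 of 17 to the left) stand far beyond the 2.86% and 2.39% of all genes tested in the bottom bar. That bar includes 4748 genes without reads in any library.

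The fasted mice gave the same comparison in libraries not used above, although all 42 libraries share 1 estimate of the spread. Fed and fasted libraries also had batch means removed within the same sets of libraries. In 24 h fasted mice 647 genes were higher in VMH and 677 in DMH, which were 1.93% and 2.02%, together 3.94%, of the genes tested. Of the 959 genes higher in fed VMH, 912 had the same direction in fasted mice and 493 (51.4%) also passed the test that way. Of the 802 genes higher in fed DMH, 695 had the same direction and 304 (37.9%) passed. Among the fed genes with a difference of at least 1, the direction was the same for 249 of 255 and 198 of 199. Over all genes tested, called or not, the fed and fasted differences had a Pearson correlation of 0.60. The VMH list held 15 genes higher in VMH and the DMH list 10 genes higher in DMH in fasted mice too.

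Over the called genes the fasted differences were smaller, with a median of 0.53 against 0.75 in fed mice for the VMH-higher genes and of -0.44 against -0.68 for the DMH-higher genes. These genes were chosen by their fed difference. Among leading genes, Fezf1 differed by 4.55 and Nr5a1 by 3.58 in fasted mice, and Hcrt, Npvf and Gad2 by -5.31, -4.86 and -3.69. In the test of the difference between the fed and fasted values, limma called 0 of 33579 genes, with 1630 genes at an unadjusted p under 0.05 and a lowest adjusted p of 0.71. Grem1, a BMP antagonist, was the 1 gene that passed in opposite directions, at 0.75 ± 0.21 in fed and -0.78 in fasted mice, and its difference between states did not pass the adjustment (adjusted p = 0.71).

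**Figure D5:**
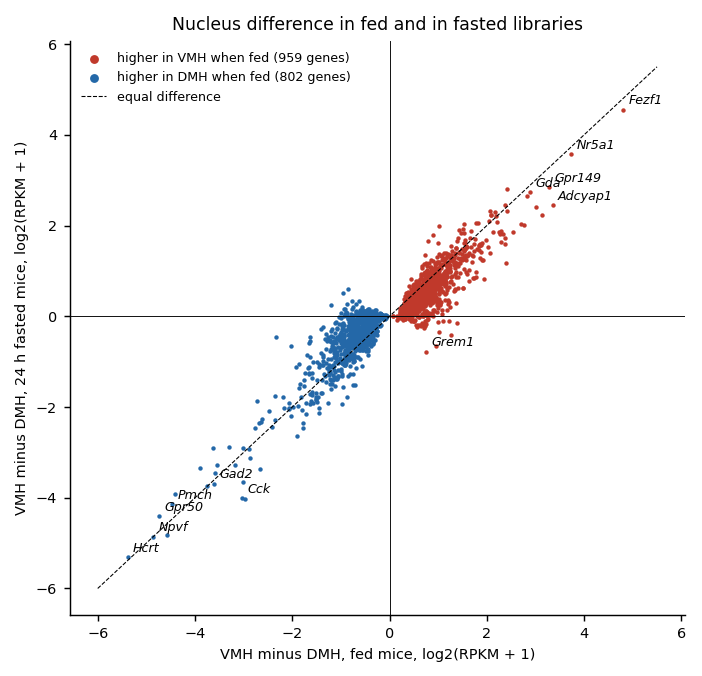
VMH minus DMH difference in fed mice (x axis) and in 24 h fasted mice (y axis), on the log2(RPKM + 1) scale, for the 1761 genes that passed the test in fed mice. Red points are higher in fed VMH and blue points in fed DMH; the named genes lie near the dashed line of equal difference, except Grem1 below it.

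The called genes were also set against all 4 fed nuclei. They were chosen by their VMH minus DMH difference in the same libraries. That choice favours a peak in the higher nucleus and a low in the other, so the counts are no separate support. The highest fed mean was in VMH for 888 of the 959 VMH-higher genes, in ARC for 40 and in PVN for 31. Of the 802 DMH-higher genes, 429 had their highest mean in DMH, 206 in PVN and 167 in ARC, and 648 had their lowest mean in VMH. Ebf3, for example, averaged 15.2 ± 2.83 RPKM in DMH and 48.8 RPKM in PVN, and Ghrh 64.9 ± 30.5 RPKM in DMH and 199 RPKM in ARC.

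Promoter sequences are shown for 2 of the leading genes because they hold a motif of a factor family that differed between the nuclei. They are RefSeq sequences of 250 bases upstream of the start on GRCm38.p6, 5′ to 3′, with the motif in capitals. Hipk4 (chr7:27523011-27523260, plus strand) holds CAAGGTCA, the extended half-site of SF-1 and related monomeric receptors, and Npvf (chr6:50654446-50654695, minus strand) holds 2 copies of TAATTA, a homeodomain core.
Hipk4: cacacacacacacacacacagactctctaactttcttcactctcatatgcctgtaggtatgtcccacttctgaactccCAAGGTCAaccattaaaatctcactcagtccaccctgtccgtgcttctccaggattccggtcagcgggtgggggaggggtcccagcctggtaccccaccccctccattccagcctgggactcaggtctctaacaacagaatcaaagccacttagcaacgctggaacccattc
Npvf: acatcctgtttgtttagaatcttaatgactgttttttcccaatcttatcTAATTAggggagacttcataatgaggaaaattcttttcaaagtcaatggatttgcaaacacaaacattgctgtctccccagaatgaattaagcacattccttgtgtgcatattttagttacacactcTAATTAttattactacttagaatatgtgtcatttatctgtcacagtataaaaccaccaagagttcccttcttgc
Both motifs were searched on both strands. CAAGGTCA was in 1.51% of the upstream sequences of 27025 genes and in 2 of the 171 genes at least 1 higher in VMH that had a sequence (1.17%). TAATTA was in 5.65% of all and in 8 of the 147 such genes higher in DMH (5.44%). AAGGTCA, which lies within CAAGGTCA, was in 4.7% of all, in 2.34% of the VMH-higher and in 2.72% of the DMH-higher genes. CAAGGTCA was in 0 of the 147 DMH-higher genes, and TAATTA in 5.26% of the VMH-higher genes. A match is a description of letters, not a binding site.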

How the data were processed

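The authors laser-captured nuclei, amplified RNA with the NuGEN Ovation system, sequenced single-end reads without strand information and mapped them to GRCm38 with TopHat2 2.0.11, and, per the labels, also used CASAVA 1.7, Cufflinks 2.2.1, edgeR and limma. The study's methods state that outlier samples were removed and that tissue capture and libraries were handled in batches. The deposited values are RPKM for 37907 Ensembl genes in 42 libraries. They hold no 0: genes without reads share a value within each of 3 sets of libraries, taken here as the batches, and the values had their batch means removed. That no-read value had a median of 1.60 RPKM, so differences of low genes are understated. Depth was estimated from whole-read steps above it (97.7% to 98.9% of low values whole within 0.05 reads). It rests on exon length and is an estimate. Added counts averaged 5 reads.

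The study used generalized linear models of counts. For RPKM, limma 3.58.1 in R 4.3.3 was fitted to log2(RPKM + 1) of 33579 genes above 1 RPKM in at least 4 libraries, over all 8 groups with an intensity trend, and tested at a Benjamini-Hochberg adjusted p under 0.1. The scripts were tested on simulated data. Because replicates are separate tissue samples whose mice the labels do not name, p-values measure the spread between samples, and the nuclei of shared mice were treated as independent. Symbols, positions and exon overlap came from GENCODE M21, which gave 36049 of the IDs a symbol. Promoters came from RefSeq.

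Genes named were the 12 largest differences in each direction among protein-coding genes past the threshold with at most 20% exon overlap and libraries that did not overlap, the members of marker lists and of short lists, up to 4 per direction of longer lists, and the leading genes of the fed and fasted difference. Some genes that the rule names are not reported here. The comparison, lists and rule were chosen with earlier results of these data known. The alternatives tried were other pseudocounts, filters, scaling and weights, the 2 nuclei alone, no trend, a replicate block, each library left out, stricter thresholds and, chosen after seeing the data, depth, batch and a filter on reads.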

Additional observations from a re-analysis of the deposited data

Results flagged for a closer look

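Single libraries were compared with the rest of their group for the genes named above, by the gap to the nearest library over the range of the group, in 236 gene and group pairs. Chance marks about 5% of such groups, or 11.8 here, and 31 were marked. They are given as values, and their cause was not tested.

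In DMH library 1, Pmch was at 1003 RPKM (220 to 307 in the other 4), Parpbp at 535 (67.3 to 107), Gad2 at 307 (189 to 212), Gad1 at 34.6 (25.8 to 27.2) and Drd2 at 12.5 (5.88 to 7.30), all high. In the same library Slc17a6 was at 32.1 RPKM (49.7 to 53.5) and Calb1 at 20.2 (30.3 to 34.4), both low. Of these, the call of Drd2 was lost without that library (-1.25, adjusted p = 0.17 in limma).

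In VMH library 2, some DMH-higher genes and Agrp were high in RPKM: Gal at 23.1 (3.82 to 10.9 in the other 5), Gad2 at 32.5 (12.4 to 18.2), Cartpt at 47.8 (21.1 to 30.3), Cckar at 8.29 (0.672 to 2.21), Dlx5 at 3.63 (0.834 to 1.84), Nrn1 at 3.22 (0.606 to 1.37), Necab1 at 6.79 (3.49 to 4.43) and Agrp at 8.82 (2.03 to 3.58). The arcuate markers Npy (4.54), Tac2 (2.04) and Pomc (19.3) lay within the range of the other VMH libraries. The DMH-higher gene Trh, at 1.89, was the lowest of the VMH libraries. Thrb was low there, at 10.04 (13.5 to 15.6). Leaving that library out made the differences of Gal (-4.87) and Gad2 (-3.79) larger. In VMH library 1, Trh at 21.1 (1.89 to 7.74), Tac2 at 12.2 (1.39 to 3.22), Npy at 41.5 (4.20 to 11.5), Ppp1r17 at 8.49 (4.76 to 5.82) and Chrm5 at 64.4 (14.2 to 32.5) were high.

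In DMH library 4 the myelin gene Mbp, at 28.8 RPKM (43.7 to 48.4), was low, and Cnih3 at 3.86, Gabra2 at 27.0 and Drd1 at 5.49 were high. Without that library Mbp differed by 0.70 and still passed the test. The other marked values were Asb4 at 60.2 RPKM in DMH library 2, Dlx6os1 at 2.87 and Crh at 5.55 in DMH library 5, Kcnq3 at 15.2 and Mc3r at 22.4 in VMH library 4, and Gabra2 at 46.2 in VMH library 5.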

How the results depend on the processing

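The 25 alternatives gave 1182 to 2076 genes called between fed VMH and DMH beside the 1761 of the reported fit, apart from the 454 (255 and 199) with a difference of at least 1. When the 2 nuclei were fitted alone, 727 genes were higher in VMH and 455 in DMH, and in fasted mice 866 genes passed (427 and 439). Leaving out 1 library gave 765 to 984 genes higher in VMH and 631 to 801 higher in DMH, with the lowest counts without DMH library 1. In fasted mice these ranges were 532 to 713 and 570 to 1046, the highest without fasted VMH library 2 (713) and fasted DMH library 3 (1046). The genes behind the fed counts also changed. Of the 959 VMH-higher calls 314, and of the 802 DMH-higher calls 403, were lost in at least 1 fit without 1 fed library. With the replicate number as a block, 820 and 613 genes passed in fed mice and 454 and 510 in fasted mice. Same-numbered libraries did not deviate together (correlations of -0.074 to 0.049), so the numbers were not taken as pairs. The VMH and DMH libraries of fed numbers 2 and 4, and of fasted numbers 1 to 4, also lay in different inferred batches. The block therefore does not stand for shared mice. The 3 alternatives chosen after seeing the data gave 1021 and 799 genes with depth as a covariate, 907 and 753 with batch, and 1146 and 930 with the filter on reads.

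Of 106 named genes past the threshold, 96 passed in the same direction under every alternative fit and 0 reversed. The stricter thresholds, a difference of at least 1 and an adjusted p under 0.05, were not part of this count. Several named genes differed by less than 1. Dlx6, Gabra2, Cckar, Hcrtr1, Npy1r, Drd1, Crh, Egr2 and Pomc missed the threshold when the nuclei were fitted alone. Drd2 and Pomc missed it under the block (adjusted p = 0.10 and 0.13 in limma) and in several fits without 1 library. The difference of Pomc was 0.58 without DMH library 5. Agrp and Lepr, whose differences were near 0, changed sign. Agrp took -0.036 with array weights, -0.013 with batch and -0.21 to 0.19 without single libraries, and Lepr -0.012 with array weights, -0.0063 with depth, -0.0015 with batch and -0.070 to 0.11 without single libraries. Median ratio scaling moved the median of all genes by 0.0059 in fed mice. List counts moved by up to 6 genes. With the nuclei fitted alone the neuropeptides higher in DMH fell from 16 to 11, axon guidance genes from 12 and 10 to 8 and 5, and potassium channels higher in VMH from 14 to 10. The transcription factors higher in DMH rose from 19 to 25 with the strict filter or the filter on reads. Oligodendrocyte genes higher in VMH fell from 7 to 4 under the block. The cause of these changes was not tested. At the depths here a gene near the no-read value could not be resolved. This held most of all in VMH libraries 6 and 1, estimated at 1.54 and 2.02 M reads. The groups overlapped in estimated depth, with means of 3.20 M reads in VMH and 3.91 M reads in DMH (exact permutation p = 0.30).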
